A study of Mus musculus with 20 samples.

Results

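The genes described here are 39 interferon-stimulated genes of the mouse, followed in cardiac fibroblasts before and after myocardial infarction (MI). They were taken as a fixed list of symbols, and all 39 were found among the 25746 genes of the deposited RNA table, with all 39 kept by the filter on low counts. For chromatin, every called peak within 10 kb of a member's gene span was used, which gave 179 of 143334 merged regions. The cells carried a tamoxifen-inducible MerCreMer recombinase that marks the Tcf21 lineage, the resident fibroblasts of the heart, with eGFP. All groups share this label and the tamoxifen course (75 mg/kg/day for 5 days, injected into the peritoneum). The 5 groups are uninjured hearts and hearts taken 3 days, 7 days, 2 weeks or 4 weeks after MI, each with 2 RNA-seq libraries made from 10000 sorted eGFP+ cells and 2 ATAC-seq libraries. The sources used here do not give age, strain or the way the infarct was made, and no group of operated hearts without an infarct was analysed here. Whether replicate libraries stem from different mice is not stated, so a p-value reflects the scatter of these particular libraries, part of which may be technical. Within day 3, day 7 and week 4, Y-linked reads exceeded 0.001% of counts in 1 RNA replicate and not in the other. The RNA replicates of these groups thus differ in whether male cells were present, and do not stem from the same mice. Neither uninjured RNA library exceeded this share and both week 2 libraries did, so this difference coincides with group for week 2 against uninjured.

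Interferons are secreted proteins that bind receptors on the cell surface, where the kinases Jak1 and Tyk2 activate transcription factors, among them Stat2. Stat2 and Irf9 are parts of a complex that binds the interferon-stimulated response element (ISRE) in promoters, and the gamma-activated site (GAS) is the other promoter element of the response. The target genes encode sensors of foreign nucleic acid, proteins that block viral RNA and budding, the ubiquitin-like protein Isg15 and GTPases of the guanylate-binding and immunity-related families. In the infarcted heart the response has been described mainly in macrophages and other immune cells.

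The response element is visible in the promoters themselves. A window of 300 bases, from 250 before to 50 after each transcription start, was read from the RefSeq table of build GRCm38.p6, which matched 28 of the 39 members by symbol. The 11 without an entry are Ifi27, Mx1, Mx2, Oas2, Usp18, Rtp4, Dhx58, Parp9, Parp14, Zbp1 and Iigp1. The ISRE core letters GAAANNGAAA, read on both strands (TTTCNNTTTC on the other), stood in the windows of 16 of the 28 members (57.1%) and of 3.99% of the 27025 genes that have such a window. The GAS letters TTCNNNGAA, which read the same on both strands, stood in 7 of the 28 (25%) and in 9.55% of all genes in it. These matches describe letters in a window and are no measure of binding. Below are 10 of these promoters, chosen after their values were seen to show how the letters stand alone, side by side or overlapping; 7 of the 10 belong to genes that rose at day 3. Each is printed 5′ to 3′ on the gene's own strand with the ISRE letters, or overlapping copies of them, in capitals and up to 30 bases on either side.
Isg15 (chr4:156200845-156200926, minus strand, from base -108 to -27 of the start): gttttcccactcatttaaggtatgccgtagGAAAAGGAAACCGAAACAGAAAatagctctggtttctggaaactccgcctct
Ifit1 (chr19:34640755-34640843, plus strand, -134 to -46): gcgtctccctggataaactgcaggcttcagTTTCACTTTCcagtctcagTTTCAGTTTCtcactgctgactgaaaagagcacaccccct
Ifit3 (chr19:34583343-34583446, plus strand, -186 to -83): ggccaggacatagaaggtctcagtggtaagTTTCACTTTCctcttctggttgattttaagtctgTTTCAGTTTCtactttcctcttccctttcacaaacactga
Ifit3b (chr19:34607739-34607842, plus strand, -218 to -115): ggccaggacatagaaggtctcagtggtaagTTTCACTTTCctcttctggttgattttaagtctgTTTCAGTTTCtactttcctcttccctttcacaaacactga
Oas1a (chr5:120907526-120907575, minus strand, -50 to -1): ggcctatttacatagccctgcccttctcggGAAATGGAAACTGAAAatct
Oas3 (chr5:120777695-120777764, minus strand, -105 to -36): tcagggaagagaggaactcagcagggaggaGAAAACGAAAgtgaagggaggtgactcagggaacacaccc
Rsad2 (chr12:26456533-26456602, minus strand, -150 to -81): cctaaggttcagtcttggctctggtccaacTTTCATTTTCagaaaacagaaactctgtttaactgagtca
Bst2 (chr8:71537557-71537632, minus strand, -160 to -85): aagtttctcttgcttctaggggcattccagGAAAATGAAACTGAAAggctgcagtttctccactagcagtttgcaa
Gbp3 (chr3:142559969-142560043, plus strand, -75 to -1): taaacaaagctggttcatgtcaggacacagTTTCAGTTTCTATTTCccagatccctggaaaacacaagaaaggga
Igtp (chr11:58199492-58199555, plus strand, -64 to -1): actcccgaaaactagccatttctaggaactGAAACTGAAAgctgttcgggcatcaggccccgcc
Isg15 carries 3 overlapping copies, Oas1a, Bst2 and Gbp3 carry 2 overlapping copies each, and Ifit1, Ifit3 and Ifit3b carry 2 separate copies each. The printed stretches of Ifit3 and its neighbour Ifit3b are identical in 104 of 104 bases. The GAS letters of Bst2 overlap its ISRE letters. Irf7, Irf9, Irf1, Oasl1, Oasl2, Ifi44, Ifi35, Ifit2, Cmpk2, Xaf1, Parp12 and Dtx3l hold no ISRE letters in this window.

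Most calls among the 39 genes came at day 3, fewer at day 7, and at week 4 the members' median stood near the uninjured level. Against uninjured, 17 of 39 members were higher and 0 lower at day 3 in edgeR's quasi-likelihood test over all genes (adjusted p under 0.05), where 7.39% of the 14968 genes tested were higher and 4.4% lower. Both day 3 libraries lay above both uninjured libraries for 31 members and below for 1, against 29.5% and 30.6% of all genes. The median log2 fold change of the members was 1.36, or 1.34 with Oas3, which had no uninjured count, set to its lower bound, and that of all genes was -0.02. At day 7, 7 of 39 were higher and 0 lower (4.39% and 2.76% of all genes), with 23 members above both uninjured libraries and 3 below (27.3% and 27.7% of all genes) and a median of 0.75. At week 2, 0 of 39 passed in either direction (1.44% and 0.454% of all genes), with 6 above and 6 below (19.3% and 22.4%) and a median of 0.25. At week 4, 0 were higher and 1 was lower (1.85% and 0.474%), with 5 above and 11 below (25.6% and 25.6%) and a median of 0.02. At an unadjusted p under 0.05 the higher and lower counts were 22 and 0 at day 3 (14% and 10.9% of all genes), 14 and 1 at day 7 (11.1% and 9.05%) and 0 and 4 at week 4 (7.88% and 4.85%), and DESeq2 passed 19, 10 and 1 members at these times, where it passed 20.2%, 14% and 6.3% of all genes. A test for any difference among the 5 groups passed for 17 of 39 members and for 15.7% of all genes.

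Each library shows the course on its own. The median over the 39 members of the log2 ratio to the uninjured mean (0.5 CPM added to both) was -0.07 and 0.07 in the uninjured libraries, 1.09 and 1.18 at day 3, 0.74 and 0.80 at day 7, -0.22 and 0.49 at week 2, and -0.11 and -0.12 at week 4. CPM is the count scaled to a library size of 1000000, after TMM scaling of the library sizes. The medians of replicates sat close together except at week 2, where replicate 2 had 25 members above both uninjured libraries and replicate 1 had 7. Those of the uninjured libraries lie about 0 because the ratio is to their own mean. Single members could differ more between replicates, as Stat2 did at day 7 (53.6 and 15.9 CPM). The members together took 0.168 and 0.224% of all counts in the uninjured libraries, 0.431 and 0.411% at day 3, 0.264 and 0.291% at day 7, 0.152 and 0.252% at week 2, and 0.162 and 0.149% at week 4. Mean CPM was highest at day 3 for 28 members, at day 7 for 7, at week 4 for 2, and at week 2 and in uninjured hearts for 1 each.

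**Figure D1:**
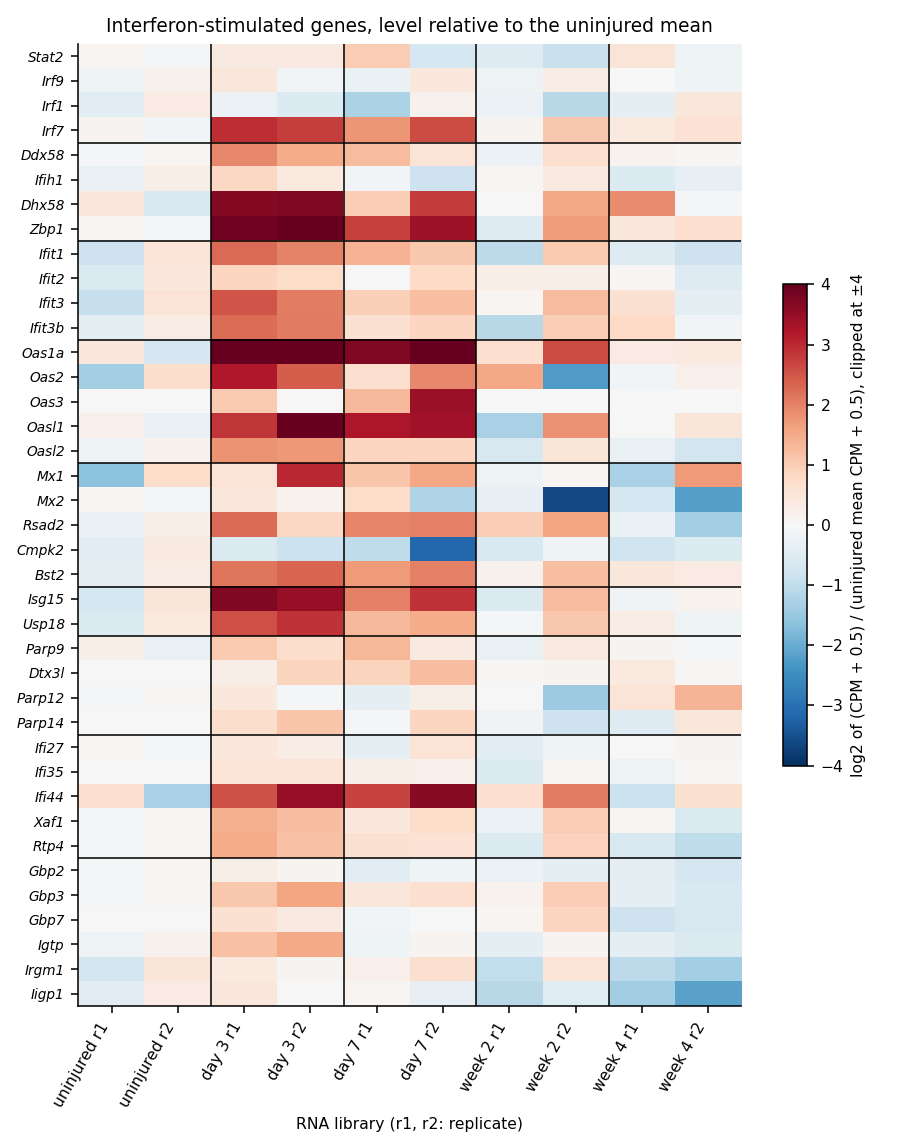
Heat map of the 39 members (rows, grouped by role with black lines) in the 10 RNA libraries (columns), coloured by the log2 of (CPM + 0.5) over (uninjured mean CPM + 0.5) and clipped at ±4. Red fills most rows in the day 3 libraries, with medians of 1.09 and 1.18, and fades towards week 4, where the medians are -0.11 and -0.12.

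Depth and purity set the frame for these values. The RNA libraries held 16397211 to 21043997 counts. All 10 fibroblast markers of the list (among them Col1a1, Dcn and Pdgfra) were detected in every library. They summed to 63001 and 64248 CPM in the uninjured libraries, 46527 and 31423 at day 3, and 35184 to 70570 later, and 4 of the 10 were higher and 5 lower at day 3. The 20 macrophage and monocyte markers summed to 91.7 and 100.1 CPM in the uninjured libraries, 925 and 1508 at day 3, 2467 and 4159 at day 7, 653 and 811 at week 2, and 213 and 324 at week 4. Of these 20, 15 were higher at day 3 and 18 at day 7, and at most 2 were at 0 in any library. The markers were thus higher at day 7 than at day 3 in every library, while the members' medians were lower. Of 11 T and NK cell markers 7 to 10 were at 0 in each library, of 8 neutrophil markers 2 to 7, and of 6 B cell markers 2 to 5. Neutrophil markers summed to 0.053 and 0.161 CPM in the uninjured libraries, 10.5 and 7.21 at day 3, and 3.64 and 23.3 at day 7. T and NK cell markers summed to 0.053 and 0.375 CPM, then 0.831 and 5.54, then 1.38 and 8.92. For B cell markers the sums were 2.13 and 3.75 CPM, then 4.39 and 10.6, then 41.9 and 32. Only 5 neutrophil, 2 T and NK cell and 3 B cell markers were kept by the filter on low counts and tested. None of these tested markers passed at day 3, and 1 B cell marker was higher at day 7. All of the tested markers had a positive log2 fold change at day 3. Both day 3 libraries lay above both uninjured ones for 4 neutrophil markers, 1 T and NK cell marker and 1 B cell marker. The dendritic cell list had 1 gene that passed at day 3 and at day 7, the member Bst2, and its 8 other markers summed to 8.54 to 22.7 CPM, lowest in the day 3 libraries. The low sum does not hold for most of the list. At day 3 the log2 fold change was positive for 5 of its 6 tested genes, Bst2 among them, and the lowest was -1.53. Of the 8 other markers, 2 and 4 were at 0 in the day 3 libraries and 5 and 7 in the uninjured ones. The sums of some other lists were also lower at day 3 than in uninjured hearts. The 12 endothelial markers summed to 554 and 416 CPM in the uninjured libraries and 194 and 127 at day 3 (6 lower, 0 higher), and the 7 pericyte and smooth muscle markers to 919 and 426 and then 247 and 152 (2 lower). The 5 erythroid markers summed to 4132 and 5984 CPM in the uninjured libraries and 1205 and 142 at day 3, and none of them passed. Mitochondrial genes took 2.66 and 2.71% of counts in the uninjured libraries, 1.36 and 1.07% at day 3, and 0.987 to 4.21% later. The part of these other cells, of the fibroblast markers and of the mitochondrial share in the members' change was not tested. In bulk RNA, fewer cells of a type and less RNA per cell cannot be told apart.

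**Figure D2:**
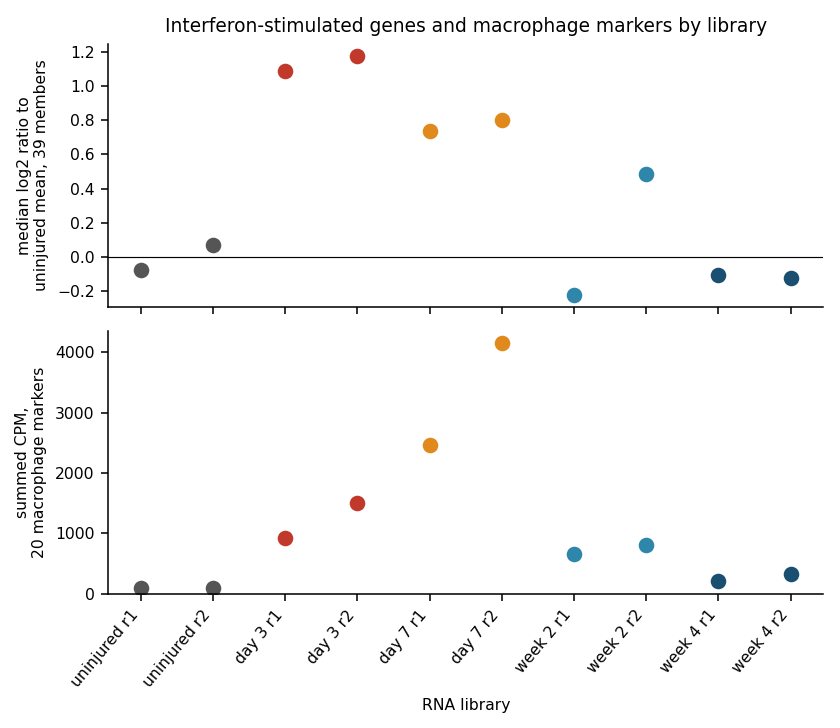
Upper panel, the median log2 ratio of the 39 members to the uninjured mean in each RNA library, and lower panel, the summed CPM of 20 macrophage and monocyte markers in the same library (linear axis from 0). The members peak in the day 3 libraries (1.09 and 1.18) and the markers in the day 7 libraries (2467 and 4159 CPM).

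Of the transcription factors among the members, Irf7 rose and Irf9, Stat2 and Irf1 did not pass at any time. Irf7 (chr7:141262706-141266481), the factor that amplifies the interferon response, had 20.9 and 18 CPM in the uninjured libraries, 156 and 135 at day 3, 67.5 and 121 at day 7, 21.1 and 41.3 at week 2, and 25.9 and 29.2 at week 4. Every library after MI lay above both uninjured ones, day 3 and day 7 far above. The log2 fold change was 2.9 ± 0.38 (SE), adjusted p = 0.00065 at day 3 and 2.27 ± 0.37 (SE), adjusted p = 0.0033 at day 7. Stat2 (chr10:128270559-128292849), which binds Irf9 in the ISRE-binding complex, had 27.9 and 24.6 CPM in the uninjured libraries, 34 and 34.1 at day 3, 53.6 and 15.9 at day 7, 18.3 and 14 at week 2, and 37.6 and 23.1 at week 4. The day 7 libraries lay far apart, on either side of the uninjured ones, and no time passed. Irf9 (chr14:55603571-55610030), the DNA-binding part of that complex, had 59.3 and 77.9 CPM in the uninjured libraries, 94.6 and 63 at day 3, 57.6 and 91.7 at day 7, 59.1 and 84.7 at week 2, and 68.3 and 61 at week 4, and every group overlapped the uninjured one. Irf1 (chr11:53770014-53778374), a factor best known from the interferon gamma response, had 116 and 194 CPM in the uninjured libraries, 131 and 105 at day 3, 64.2 and 174 at day 7, 131 and 71.5 at week 2, and 118 and 211 at week 4. Its groups overlapped at every time, and the log2 fold change at day 3 was -0.39 ± 0.49 (SE), adjusted p = 0.68. The difference between Irf7 and these 3 factors was not tested.

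Of the sensors of foreign nucleic acid, 3 of 4 rose at day 3. Ddx58 (RIG-I, chr4:40203773-40239828) had 31.9 and 36.1 CPM in the uninjured libraries, 129 and 96.5 at day 3, 82.6 and 49.7 at day 7, 28.6 and 54.7 at week 2, and 37.9 and 35.1 at week 4. Both early times stood above the uninjured libraries, and the day 3 log2 fold change was 1.73 ± 0.36 (SE), adjusted p = 0.008. Zbp1 (chr2:173206612-173218923), a sensor of nucleic acid in the Z form, had 2.08 and 1.88 CPM in the uninjured libraries, 36 and 52.5 at day 3, 15.9 and 25.4 at day 7, 1.22 and 7.37 at week 2, and 2.91 and 3.46 at week 4. It came from about 2 CPM and passed at day 3 (4.48 ± 0.76 (SE), adjusted p = 0.0029) and at day 7 (3.38 ± 0.73 (SE), adjusted p = 0.016). Dhx58 (LGP2, chr11:100694884-100704271), a partner of the other RNA sensors, had 2.88 and 1.13 CPM in the uninjured libraries, 31.7 and 32.7 at day 3, 4.48 and 17 at day 7, 2.0 and 6.86 at week 2, and 8.73 and 1.9 at week 4, with a day 3 log2 fold change of 4.0 ± 0.98 (SE), adjusted p = 0.019. Its later libraries all lay below both day 3 ones, and 1 each of week 2 and week 4 lay in the uninjured range. Ifih1 (MDA5) had 57.6 and 83.6 CPM in the uninjured libraries, 125 and 92.6 at day 3, 65.2 and 39.9 at day 7, 74.9 and 90.1 at week 2, and 47.9 and 55.6 at week 4 and did not pass against uninjured at any time, although both day 3 libraries lay above both uninjured ones.

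The IFIT proteins bind viral RNA and block its translation, and their genes lie side by side on chromosome 19. Ifit1 (chr19:34640871-34650009) had 29.4 and 75.2 CPM in the uninjured libraries, 252 and 209 at day 3, 139 and 111 at day 7, 25.1 and 107 at week 2, and 36.4 and 29.5 at week 4. Both day 3 libraries were well above uninjured, but the test missed the threshold (2.14 ± 0.63 (SE), adjusted p = 0.062); the uninjured replicates lay far apart. Ifit3 (chr19:34583531-34588731) had 56 and 156 CPM in the uninjured libraries, 609 and 438 at day 3, 205 and 243 at day 7, 111 and 256 at week 2, and 161 and 80.2 at week 4. It passed at day 3 (2.3 ± 0.57 (SE), adjusted p = 0.031), and at day 7 both libraries were above uninjured without passing (1.08 ± 0.55 (SE), adjusted p = 0.32). Ifit3b (chr19:34607970-34613401) had 22.1 and 35.9 CPM in the uninjured libraries, 139.9 and 124 at day 3, 44.9 and 52.8 at day 7, 13.1 and 57.9 at week 2, and 51.3 and 26.6 at week 4, with a day 3 log2 fold change of 2.18 ± 0.59 (SE), adjusted p = 0.039. Ifit3 and Ifit3b are near copies, and their counts had decimals in all 10 libraries that summed to whole numbers (tolerance 0.02), so the split between them is uncertain. Their summed level was 78.1 and 191.9 CPM in the uninjured libraries and 749 and 562 CPM at day 3. Ifit2 had 36.1 and 72.7 CPM in the uninjured libraries, 98.5 and 90 at day 3, 55.1 and 95.2 at day 7, 65.9 and 63.8 at week 2, and 56.1 and 38.2 at week 4 and did not pass.

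OAS proteins make an oligoadenylate that switches on an RNA-cutting enzyme, and OAS-like proteins are their relatives. Oas1a (chr5:120896256-120907521) showed the largest log2 fold change of the members that passed at day 3. It had 3.52 and 1.34 CPM in the uninjured libraries, 78.4 and 104 at day 3, 37.5 and 54.3 at day 7, 4.16 and 17.5 at week 2, and 3.16 and 3.31 at week 4. The day 3 and day 7 libraries lay above all others, with log2 fold changes of 5.22 ± 0.70 (SE), adjusted p = 0.00086 and 4.24 ± 0.67 (SE), adjusted p = 0.0033. Oasl2 (chr5:114896936-114912234) had 49.8 and 63.5 CPM in the uninjured libraries, 197 and 188 at day 3, 104 and 103 at day 7, 36.2 and 79.6 at week 2, and 45.7 and 33.6 at week 4. Its replicates nearly coincided at day 3 and day 7, and day 3 passed (1.77 ± 0.34 (SE), adjusted p = 0.005) while day 7 did not (0.87 ± 0.33 (SE), adjusted p = 0.15). Oasl1 (chr5:114923240-114937915) had 1.39 and 0.858 CPM in the uninjured libraries, 11.2 and 31.7 at day 3, 14.6 and 16.2 at day 7, 0.167 and 5.23 at week 2, and 1.11 and 1.75 at week 4, with a day 3 log2 fold change of 4.25 ± 1.19 (SE), adjusted p = 0.037. Both day 7 libraries lay between the 2 day 3 libraries for this gene, and day 7 missed the threshold (3.77 ± 1.17 (SE), adjusted p = 0.077). Oas3 (chr5:120753098-120777661) had 9 and 0 counts at day 3, 15 and 83 at day 7, and 0 in the other 6 libraries. Against a floor of 3 counts per library it was at least 17.9-fold higher at day 7 than in uninjured hearts, or at least 4.6-fold from day 7 replicate 1 alone, and it did not pass. Oas2 had 0.426 and 3.38 CPM in the uninjured libraries, 21.6 and 12.5 at day 3, 3.25 and 8.56 at day 7, 6.55 and 0 at week 2, and 1.73 and 2.24 at week 4 and did not pass. Reads shared among these related genes are uncertain.

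Of the other antiviral genes, Bst2 and Rsad2 changed. Bst2 (tetherin, chr8:71534255-71537456), which holds budding virus on the cell surface, had 43.4 and 68 CPM in the uninjured libraries, 247 and 282 at day 3, 184 and 225 at day 7, 62.9 and 129 at week 2, and 76.4 and 69.3 at week 4. Its groups separated cleanly at day 3 (2.25 ± 0.33 (SE), adjusted p = 0.0014) and day 7 (1.87 ± 0.33 (SE), adjusted p = 0.0053). Rsad2 (viperin, chr12:26442746-26456452), an enzyme that makes an antiviral nucleotide, had 6.93 and 9.97 CPM in the uninjured libraries, 42.3 and 15.2 at day 3, 34.2 and 35.8 at day 7, 17.3 and 26.5 at week 2, and 6.93 and 3.02 at week 4. It passed at day 7 (2.05 ± 0.56 (SE), adjusted p = 0.046) but not at day 3 (1.77 ± 0.56 (SE), adjusted p = 0.06), where its replicates were far apart. Its chromosomal neighbour Cmpk2, a nucleotide kinase, had 25.3 and 44.8 CPM in the uninjured libraries, 23.5 and 19.1 at day 3, 17.1 and 3.56 at day 7, 22.6 and 30.8 at week 2, and 19.9 and 23.8 at week 4. Both day 3 and both day 7 libraries of Cmpk2 lay below both uninjured ones, the reverse of Rsad2, without passing (-0.72 ± 0.58 (SE), adjusted p = 0.48 at day 3). The GTPases Mx1 and Mx2 stayed at 0 to 11.9 and 0 to 9.65 CPM and did not pass.

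Isg15 and Usp18, the tag and the protease that removes it, both rose. Isg15 (chr4:156199455-156200796) had 5.86 and 14 CPM in the uninjured libraries, 135 and 117 at day 3, 41.7 and 76.5 at day 7, 6.72 and 23.9 at week 2, and 9.03 and 11.1 at week 4. That is 9.95 ± 5.78 CPM in uninjured hearts, 126 ± 12.4 at day 3 and 59.1 ± 24.6 at day 7 (mean ± SD, n = 2). The day 3 and day 7 libraries did not overlap any other group, with log2 fold changes of 3.66 ± 0.61 (SE), adjusted p = 0.0032 and 2.57 ± 0.58 (SE), adjusted p = 0.023. Usp18 (chr6:121245906-121270917), which also damps the interferon receptor, had 13.1 and 25.4 CPM in the uninjured libraries, 116 and 146 at day 3, 47.9 and 54.2 at day 7, 18.2 and 40.7 at week 2, and 23.6 and 17.1 at week 4. Day 3 passed (2.77 ± 0.43 (SE), adjusted p = 0.0017) and day 7 did not (1.41 ± 0.41 (SE), adjusted p = 0.061), although both its libraries were above uninjured. The 4 ADP-ribosylation and ubiquitin genes Parp9, Dtx3l, Parp12 and Parp14 did not pass, with day 3 log2 fold changes of 0.21 to 0.95. Counts of Parp9 and Dtx3l, which overlap on chromosome 16, shared decimals in all 10 libraries, and their split is uncertain.

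Among the remaining antiviral members 3 of 5 rose at day 3. Ifi44 (chr3:151730922-151749960) had 7.2 and 1.45 CPM in the uninjured libraries, 27.8 and 53.9 at day 3, 31 and 60.1 at day 7, 7.16 and 19.5 at week 2, and 2.17 and 6.82 at week 4. It was about as high at day 7 (3.39 ± 0.85 (SE), adjusted p = 0.037) as at day 3 (3.24 ± 0.85 (SE), adjusted p = 0.031). Xaf1 (chr11:72301629-72313733), a binding partner of an inhibitor of cell death, had 28.1 and 30.3 CPM in the uninjured libraries, 78.5 and 69.8 at day 3, 39.6 and 48.8 at day 7, 25 and 60 at week 2, and 31 and 19.2 at week 4, and Rtp4 (chr16:23520291-23614222), a receptor transporter protein, had 42.5 and 45.4 CPM in the uninjured libraries, 123 and 100 at day 3, 66.7 and 65.3 at day 7, 29 and 83.3 at week 2, and 28.5 and 21.6 at week 4. Both genes reached the same log2 fold change at day 3, close to the threshold (1.34 ± 0.40 (SE), adjusted p = 0.047 for Xaf1, 1.34 ± 0.40 (SE), adjusted p = 0.046 for Rtp4). Ifi27 stayed between 147 and 295 CPM and Ifi35 between 50 and 108 CPM, and neither passed.

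The interferon-inducible GTPases, which act on vacuoles that hold microbes, were divided. Gbp3 (chr3:142560026-142573209) had 44.8 and 47.4 CPM in the uninjured libraries, 98.7 and 139 at day 3, 63.1 and 73.7 at day 7, 50.7 and 92.5 at week 2, and 36 and 29.9 at week 4, with a day 3 log2 fold change of 1.37 ± 0.31 (SE), adjusted p = 0.014. Igtp (chr11:58199556-58207591) had 56.8 and 72.9 CPM in the uninjured libraries, 147 and 185 at day 3, 58 and 69.7 at day 7, 49.8 and 70.4 at week 2, and 49.9 and 43.4 at week 4. It passed at day 3 (1.36 ± 0.27 (SE), adjusted p = 0.0064) and was back in the uninjured range at day 7 (-0.02 ± 0.26 (SE), adjusted p = 0.98). Gbp2 (chr3:142620602-142638008) had 135 and 149 CPM in the uninjured libraries, 167 and 153 at day 3, 106 and 127 at day 7, 121 and 108 at week 2, and 108 and 88.7 at week 4. Its day 3 libraries were just above uninjured and all its later libraries below, without passing (-0.53 ± 0.22 (SE), adjusted p = 0.31 at week 4). Iigp1 (chr18:60376027-60392634) had 202 and 341 CPM in the uninjured libraries, 373 and 277 at day 3, 286 and 214 at day 7, 126 and 194 at week 2, and 104 and 61.6 at week 4. It overlapped the uninjured libraries at day 3 and day 7, and both week 4 libraries lay below every other library, the 1 member lower than uninjured at any time (-1.72 ± 0.34 (SE), adjusted p = 0.022). Gbp7 had 106 and 108 CPM in the uninjured libraries, 163 and 137 at day 3, 98.1 and 105 at day 7, 113 and 193 at week 2, and 59.6 and 68.4 at week 4 and Irgm1 had 38.1 and 90.6 CPM in the uninjured libraries, 84.3 and 69.1 at day 3, 73.6 and 100.5 at day 7, 32 and 95.2 at week 2, and 30.6 and 24.8 at week 4, and neither passed against uninjured. Counts of Gbp3 and Gbp7 shared decimals in all 10 libraries, and their summed level was 150.4 and 155.9 CPM in the uninjured libraries and 262 and 276 CPM at day 3.

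**Figure D3:**
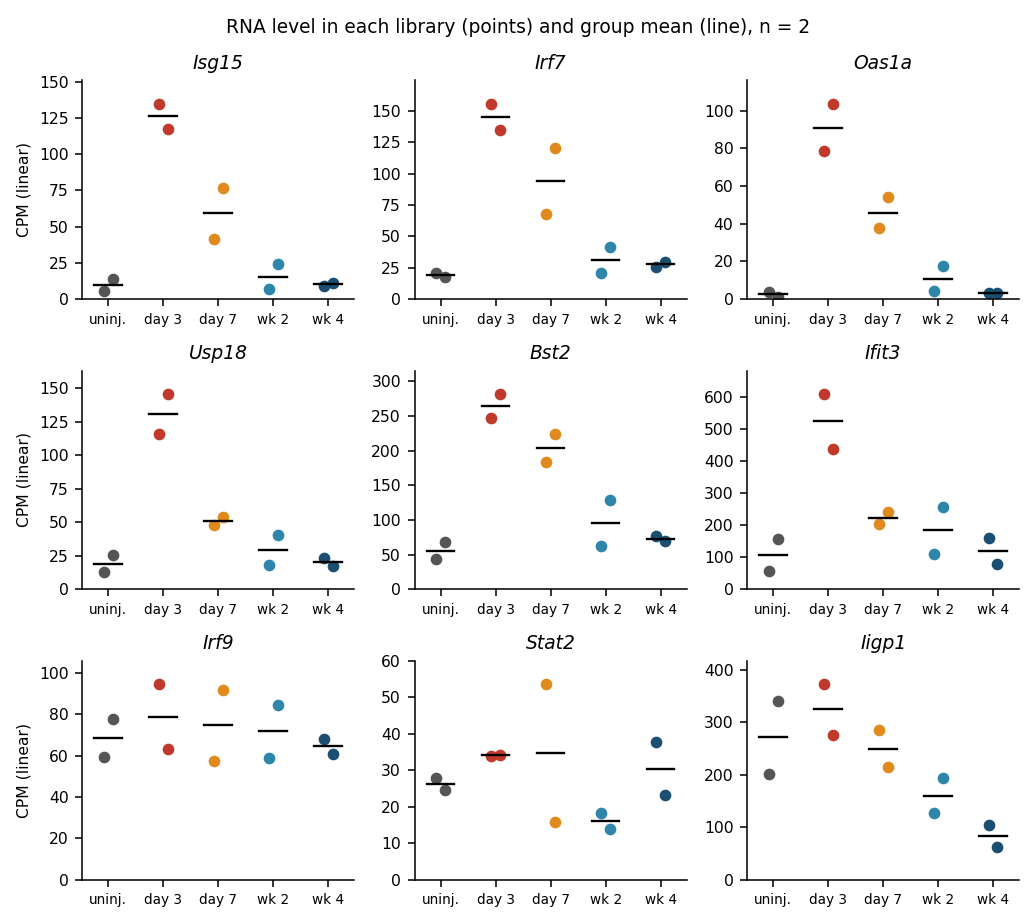
Level (CPM, linear axes from 0) of 9 members in each RNA library (points) with the mean of each group of 2 (line). Isg15, Irf7, Oas1a, Usp18, Bst2 and Ifit3 are highest at day 3, Irf9 and Stat2 overlap between uninjured hearts and day 7, and Iigp1 is lowest at week 4 (104 and 61.6 CPM).

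The change over time was tested directly between the times after MI. Week 4 was lower than day 3 for 20 of 39 members and higher for 0, where 7.52% of all genes were lower and 5.84% higher. Both week 4 libraries lay below both day 3 libraries for 31 members and above for 1 (28.5% and 30.5% of all genes), and the members' median log2 difference was -1.80, or -1.76 with Oas3 at its bound. The 20 are Irf7, Ddx58, Ifih1, Zbp1, Ifit1, Ifit3, Oas1a, Oasl1, Oasl2, Rsad2, Bst2, Isg15, Usp18, Ifi44, Xaf1, Rtp4, Gbp3, Gbp7, Igtp and Iigp1. Of the 17 that rose at day 3, Dhx58 (-2.6 ± 0.92 (SE), adjusted p = 0.082) and Ifit3b (-1.76 ± 0.58 (SE), adjusted p = 0.076) did not pass here, and Ifih1, Ifit1, Rsad2, Gbp7 and Iigp1 passed here but not against uninjured at day 3. The comparison shares the day 3 libraries with the one above. Between consecutive times few members passed. Day 7 was lower than day 3 for Igtp alone (log2 fold change -1.38 ± 0.27 (SE), adjusted p = 0.028; 0.555% of all genes lower) and higher for 0 (0.822%), although both day 7 libraries lay below both day 3 ones for 22 members (23.7% of all genes) and above for 2 (21%). Unadjusted, 0 were higher and 7 lower at day 7 than at day 3 (6.95% and 8.15% of all genes), and 0 higher and 27 lower at week 4 than at day 3 (12.7% and 14.2%). Both week 2 libraries lay below both day 7 ones for 17 members (22.6% of all genes) and above for 3 (20%). The members' median log2 difference between these times was -0.68. Week 2 against day 7 gave 0 edgeR calls (0.194% of all genes higher, 0.454% lower), with 2 higher and 10 lower at an unadjusted p under 0.05 (7.45% and 8.69% of all genes) and 4 in DESeq2 (7.3% of all genes). Week 4 against week 2 gave 0 (0.454% higher, 0.154% lower), with 3 members above and 10 below (24.3% and 21.2%), 1 higher and 8 lower unadjusted (8.48% and 6.31%) and 3 in DESeq2 (6.76%). Week 2 against uninjured, also at 0, had 3 higher and 1 lower unadjusted (5.85% and 4.7%) and 1 in DESeq2 (5.67%).

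**Figure D4:**
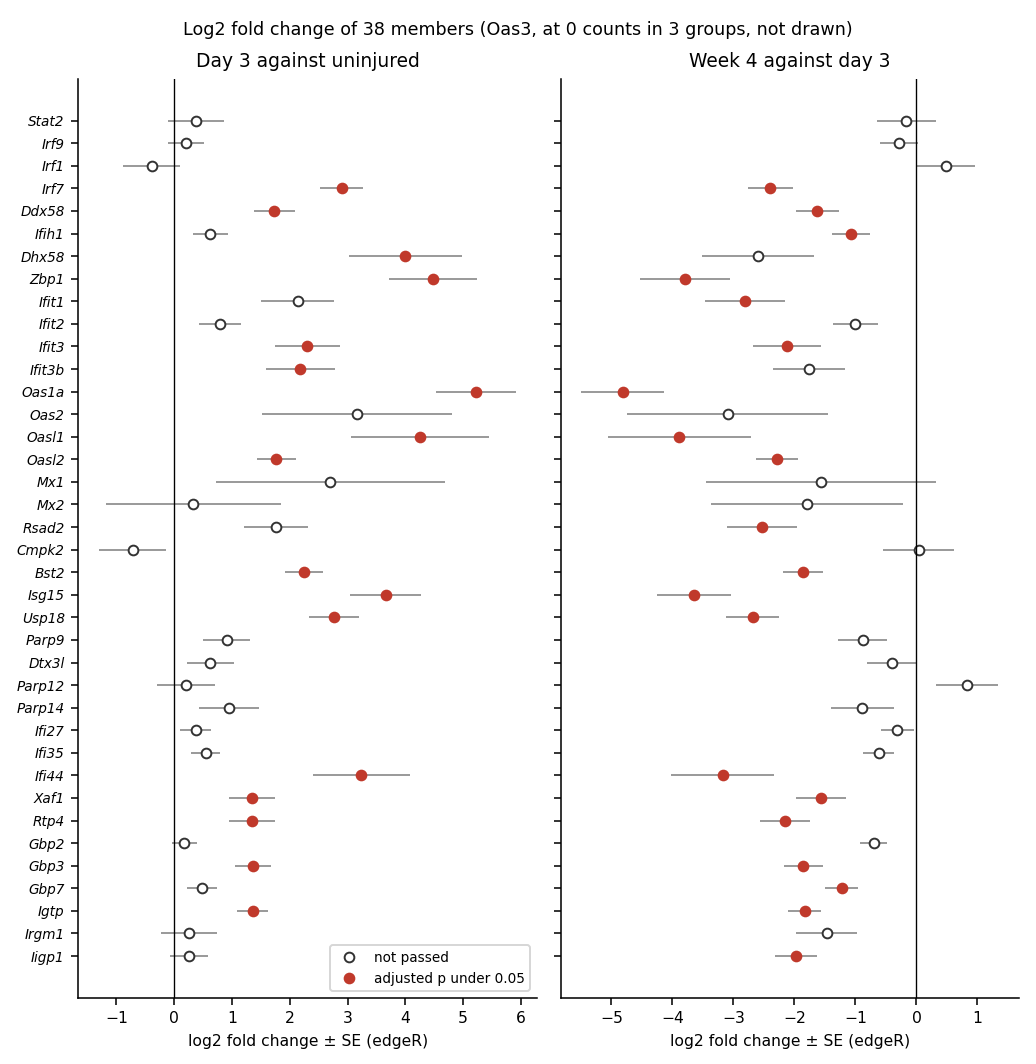
Log2 fold change (points) ± SE (bars) of 38 members at day 3 against uninjured and at week 4 against day 3, with filled points for an adjusted p under 0.05. Most points of the left panel lie right of 0 and 17 pass, and most of the right panel lie left of 0 and 20 pass. Oas3, at 0 counts in 3 groups, is not drawn.

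The calls rest on few libraries, and each of the 10 was left out in turn. At day 3 the count of higher members was 9 without day 3 replicate 2, 10 without either uninjured library, 11 without day 7 replicate 1, and 12 to 18 without any of the others. Irf7, Ddx58, Zbp1, Oas1a, Oasl2, Bst2, Isg15 and Usp18 passed in all 10 of these fits. Dhx58 no longer passed without uninjured replicate 2 or day 3 replicate 2 (adjusted p up to 0.15). Ifit3 no longer passed without uninjured replicate 1, either day 3 library or either day 7 library (adjusted p up to 0.13). Ifit3b no longer passed without either uninjured library, either day 3 library, either day 7 library or week 4 replicate 2 (adjusted p up to 0.28). Oasl1 no longer passed without either uninjured library, day 3 replicate 2, either day 7 library or either week 4 library (adjusted p up to 0.24). Ifi44 no longer passed without uninjured replicate 2, day 3 replicate 2 or day 7 replicate 1 (adjusted p up to 0.18). Xaf1 no longer passed without either uninjured library, either day 3 library, either day 7 library or week 4 replicate 2 (adjusted p up to 0.19). Rtp4 no longer passed without either uninjured library, either day 3 library, either day 7 library or either week 4 library (adjusted p up to 0.19). Gbp3 no longer passed without either uninjured library or day 3 replicate 2 (adjusted p up to 0.14). Igtp no longer passed without uninjured replicate 1 or day 3 replicate 2 (adjusted p up to 0.073). At day 7 the count was 3 without day 7 replicate 2, 4 without either uninjured library, and 6 to 10 otherwise. Irf7, Oas1a and Bst2 passed in all 10. Zbp1 no longer passed without either uninjured library or day 7 replicate 2 (adjusted p up to 0.1). Rsad2 no longer passed without either uninjured library or either day 7 library (adjusted p up to 0.22). Isg15 no longer passed without uninjured replicate 1, day 7 replicate 2 or week 4 replicate 2 (adjusted p up to 0.19). Ifi44 no longer passed without uninjured replicate 2, day 3 replicate 1 or either day 7 library (adjusted p up to 0.22). The fall of Iigp1 at week 4 no longer passed without uninjured replicate 2 or week 4 replicate 2 (adjusted p up to 0.16). With DESeq2's size factors in edgeR, Xaf1 and Rtp4 did not pass at day 3 (adjusted p = 0.051 and 0.0503). Y-linked genes took more than 0.001% of counts in week 4 replicate 2, week 2 replicates 1 and 2, day 7 replicate 2 and day 3 replicate 1. With this as a covariate 11 members passed at day 3 (8.54% of all genes), 4 at day 7 (3.92%) and 0 at week 4 (1.17%). Ifit3, Ifit3b, Oasl1, Ifi44, Xaf1 and Rtp4 then missed the threshold at day 3 (adjusted p 0.0542 to 0.0954), Rsad2, Isg15 and Ifi44 at day 7 (0.0702 to 0.117), and Iigp1 at week 4 (0.0689). For week 4 against day 3, 17 members passed with the covariate (11.5% of all genes), without Ifih1, Ifit3 and Oasl1 (adjusted p 0.0504 to 0.0778).

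The rest of the pathway was read from lists of genes outside the 39. Of 21 interferon genes in the table none passed the filter, and Ifnb1 and Ifng had 0 counts in all 10 libraries. The receptor genes were present. Ifnar1 had 85.8 and 77.5 CPM in the uninjured libraries, 61.1 and 83.3 at day 3, 83.1 and 73.3 at day 7, 93.5 and 41.3 at week 2, and 91.6 and 112 at week 4, and Ifnar2 had 55.1 and 73.4 CPM in the uninjured libraries, 60 and 66.9 at day 3, 50.1 and 40.3 at day 7, 45.3 and 39.8 at week 2, and 62.7 and 51.2 at week 4. Neither passed at any time. Of 8 receptor and kinase genes tested, 2 passed at day 3, both lower, and neither passed without day 3 replicate 2. They were the receptor chains Ifngr1 (-1.33 ± 0.25 (SE), adjusted p = 0.0047) and Il10rb (-0.87 ± 0.26 (SE), adjusted p = 0.047). Among all genes 4.4% were lower at day 3.

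Of 16 genes of the sensing pathway, 2 were higher and 1 lower at day 3, where 7.39% and 4.4% of all genes were. Tmem173 (STING), which relays the signal of cytosolic DNA, had 18.4 and 19 CPM in the uninjured libraries, 96.3 and 109.6 at day 3, 59.5 and 102 at day 7, 41.6 and 47.8 at week 2, and 53 and 42.5 at week 4. It was the 1 gene of the list still higher at week 4 (2.46 ± 0.31 (SE), adjusted p = 0.00059 at day 3 and 1.35 ± 0.30 (SE), adjusted p = 0.036 at week 4). Samhd1, a nucleotide hydrolase, was higher at day 3 (1.1 ± 0.28 (SE), adjusted p = 0.023) and the receptor gene Tlr4 lower (-1.4 ± 0.34 (SE), adjusted p = 0.019). Of 8 negative regulators only the phosphatase gene Ptpn6 passed at day 3 (3.22 ± 0.90 (SE), adjusted p = 0.037). Ptpn6 is also abundant in blood cells, and which cells its change came from was not tested. The 5 other IRF genes tested had day 3 log2 fold changes of -1.78 to 0.90 and did not pass.

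Of 49 further interferon-stimulated genes tested, 11 were higher and 0 lower at day 3 (7.39% and 4.4% of all genes). Their median log2 fold change was 0.81. Slfn9 (3.95 ± 0.59 (SE), adjusted p = 0.0015), Slfn2 (2.42 ± 0.64 (SE), adjusted p = 0.028) and Parp11 (2.42 ± 0.58 (SE), adjusted p = 0.018) had the largest values after Ms4a4c, which had no uninjured counts and 1.19 and 13.6 CPM at day 3. At day 7, 5 were higher and 2 lower (4.39% and 2.76% of all genes). At week 4, 0 were higher and 2 lower (1.85% and 0.474%). Ifitm1, a membrane protein that blocks viral entry, had 16.9 and 31.9 CPM in the uninjured libraries, 7.78 and 6.1 at day 3, 3.49 and 3.86 at day 7, 1.39 and 1.86 at week 2, and 1.61 and 2.34 at week 4. It fell at day 7 (-2.73 ± 0.71 (SE), adjusted p = 0.037), week 2 (-3.91 ± 0.75 (SE), adjusted p = 0.019) and week 4 (-3.62 ± 0.74 (SE), adjusted p = 0.025). Week 4 was lower than day 3 for 18 of the 49 (7.52% of all genes). Of 11 genes of MHC class I presentation only the peptide transporter gene Tap1 passed at day 3 (1.31 ± 0.32 (SE), adjusted p = 0.019).

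Most regions of accessible chromatin near the members were neither gained nor lost. A merged region was called gained when both libraries of a time and neither uninjured library held a peak in it, and lost in the reverse case; with 2 libraries against 2 there is no test. At day 3, 21 of the 179 regions (11.7%) were gained and 4 lost (2.23%), where 16.2% of the 103183 regions near any gene were gained and 0.941% lost. At day 7 the counts were 10 and 6 (8.13% and 2.1% of regions near any gene), at week 2 they were 6 and 6 (4.69% and 2.24%), and at week 4 they were 3 and 8 (2.61% and 3.03%). Peak lists held 105695 and 107798 peaks at day 3 and 63901 and 71909 in uninjured hearts. At day 3 the share gained near the members was below that of regions near any gene, and the share lost was above it. Of the 179 regions, 64 were held by all 10 libraries and 31 by 1 only. Of the 21 gained at day 3, 8 were in both day 7 libraries and 17 in neither week 4 library. A gained region lay near 17 members, of which 7 rose at day 3, and 10 of the 22 members without one rose as well; among all genes with a region, 49.9% had a gained one.

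Starts of members were mostly open before injury. In 25 of the 28 members with a RefSeq start (89.3%) the promoter window held a peak in all 10 libraries, against 44.9% of all genes of the promoter table. The 2 shares are not of like genes. Every member passed the RNA filter on low counts, which kept 14968 of 25746 genes, and the promoter table was not limited to such genes. The 3 exceptions are Oas1a, Oas3 and Ifi44, and each gained its start peak at day 3. The peak over the Oas1a start (chr5:120906668-120907814 as merged), which holds the promoter stretch printed above with its overlapping ISRE letters, was in neither uninjured list. Its fold enrichment in the authors' lists was 12.5 and 11.4 at day 3, 10.5 and 3.48 at day 7, 4.98 in week 2 replicate 1 and 4.07 in week 4 replicate 1, and it was absent from the other lists. The Oas3 start region (chr5:120777203-120777968) was called at day 3 only, at 3.84 and 3.67. It was flanked by gained regions upstream (chr5:120778949-120781342), held by both libraries of day 3, day 7 and week 2, and inside the gene (chr5:120774828-120776763). The start of Ifi44 (chr3:151749197-151750398) was called at day 3, at 4.08 and 5.30, and in day 7 replicate 1, at 2.68. No region near Oas1a, Oas2 or Oas3 was held by an uninjured library.

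Of the 21 regions gained at day 3, 18 lay over none of the starts read from RefSeq. Of these 18, 6 lay near a member that rose at day 3 and 12 near members that did not pass. The starts of the 11 members without a promoter entry were not read, so some of the 18 may lie over one. Upstream of Irf7, chr7:141268567-141270183 was held by both libraries of day 3, day 7 and week 2 and by neither uninjured nor week 4 library. A region between Ifit3 and Ifit3b (chr19:34597977-34599230) was gained at day 3, day 7 and week 4. Zbp1 gained chr2:173205197-173206585 at day 3, day 7 and week 2, and chr2:173214000-173215324 at day 7, week 2 and week 4. Xaf1 gained chr11:72313862-72315200 at day 3 and day 7 and chr11:72307406-72307810 at day 3, and lost chr11:72309041-72309797 at all 4 times. The other gain near a member that rose was at Oas1a (chr5:120887040-120887698, day 3). Those near members that did not pass lay at Ifih1 (2 regions), Oas3 (3 regions away from its start, 1 of them shared with Oas2), Dtx3l (2 regions, 1 of them shared with Parp9), Gbp7, Irgm1, Ifi35, Parp14 and Mx1. The region shared with Oas2 (chr5:120749277-120750323) overlaps 1 end of the Oas2 span (chr5:120730333-120749853), and the Oas2 start was not read. Isg15 kept a peak over its start in all 10 libraries, as did Irf7, Ifit3, Ifit3b and Xaf1, and gained chr4:156188042-156190242 at day 7 and week 2. Lost regions lay near 4 members at day 3, 5 at day 7, 5 at week 2 and 7 at week 4 of 39, where 4.56%, 9.04%, 9.68% and 12.3% of all genes with a region had one. The 7 members of week 4 are Iigp1, lower in RNA at that time, with 2 regions, and Irf7, Xaf1, Rtp4, Rsad2, Gbp2 and Cmpk2, which did not pass at week 4. The RNA and ATAC libraries are different samples, and the relation between a region and the level of its gene was not tested.

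**Figure D5:**
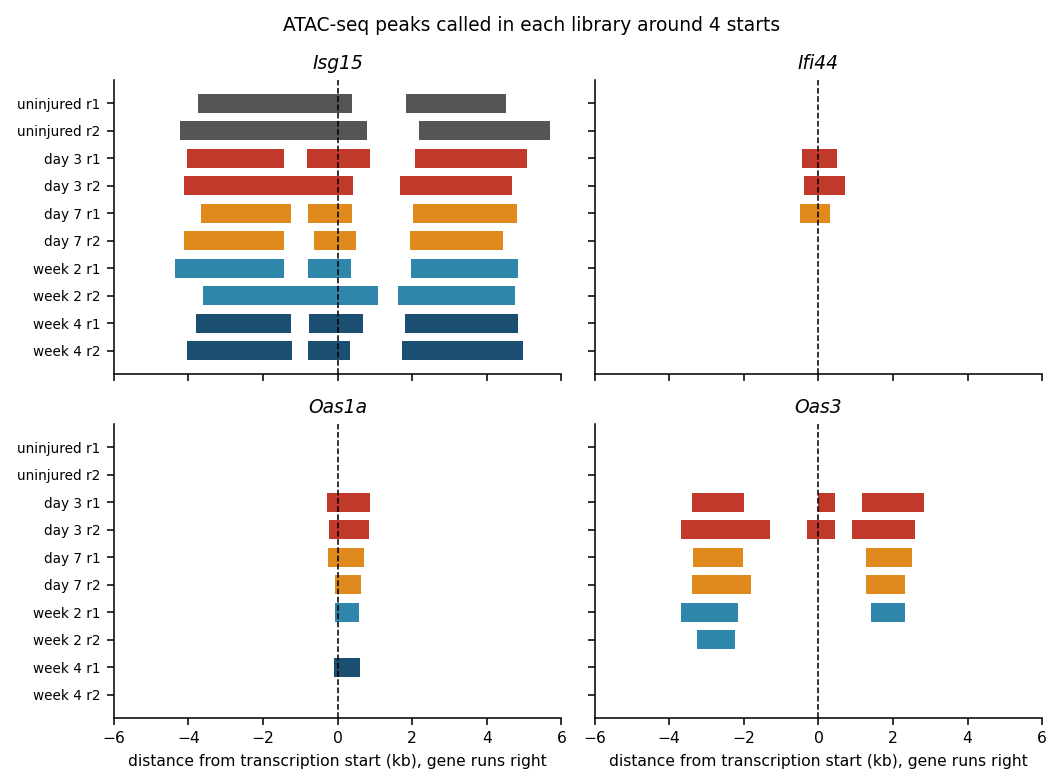
Peaks called in each of the 10 ATAC-seq libraries (bars, 1 row each) by distance in kb from the transcription start of Isg15, Ifi44, Oas1a and Oas3, with the direction of the gene to the right. Isg15 has a peak over its start in every row, while Ifi44, Oas1a and Oas3 have none in the uninjured rows and one in both day 3 rows.

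The ISRE letters were set beside the RNA result. Of the 16 members with the letters in the window, 8 rose at day 3 and the median log2 fold change was 1.75. The 16 include Oas3, which had 9 and 0 counts at day 3 and none in uninjured hearts. Its lower bound, 1.67-fold, was not used for this median and would lower it. Ifit3 and Ifit3b, identical in their printed stretches, count as 2 members. Of the 12 without them 5 rose and the median was 0.71. Another 4 that rose are among the 11 members without a promoter entry. Members without the letters in this window include Irf7, Oasl1, Oasl2, Ifi44 and Xaf1, which rose, and members with them include Stat2, Ifih1, Gbp2 and Irgm1, which did not pass. The difference between the 2 sets was not tested.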

How the data were processed

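Libraries of sorted eGFP+ cells were put into groups by their sample labels, and the number of RNA columns without a sample was 0. The RNA table as deposited gives expected counts for each gene, estimated by the authors and not scaled between libraries, as its decimals and unequal totals show; they were rounded. Each deposited ATAC-seq list gives, per peak of a library, a fold enrichment (a ratio), the −log10 of its p-value and q-value, and a score that follows the −log10 q. The submitters' processing notes name, without their roles, the builds GRCm38 and mm10 and the tools MACS2, STAR 2.5.3a, Bowtie2 2.3, DESeq2, FastQC and Trim Galore 0.6. The sources used here do not give the counting program, the strand counted or the peak thresholds, so genes that overlap or share reads are uncertain.

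Counts were fitted in R 4.3.3 with edgeR 4.0.16 (TMM scaling, filterByExpr by group, a robust quasi-likelihood model of the 10 libraries with a term for group and no other, leaving 5 residual degrees of freedom). P-values were adjusted by Benjamini-Hochberg over the 14968 genes tested within each contrast, at 0.05. The SE of a log2 fold change is its size divided by the root of the F statistic. The scripts were tested on simulated counts. PCR reads are not independent molecules, and floors of 3 counts per library cover counting error only. The peaks of the 10 lists were merged where they share at least 1 base, on chromosomes 1 to 19, X and Y. Alternatives were DESeq2 1.42.0, its size factors, no count filter, a replicate block, Y-linked reads as covariate, and each library left out; for peaks a −log10 q of at least 5, coverage of at least 50% of a region, and a 2 kb window.

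The members, the pathway and marker lists and the tests were chosen with earlier results of these data known. The rule for named genes took every member that passed in a contrast, 12 members whatever their result (Isg15, Ifit1, Ifit3, Irf7, Usp18, Oasl2, Rsad2, Stat2, Irf9, Irf1, Gbp2, Iigp1), and up to 4 passing genes of each pathway list, with Ifnb1, Ifng, Ifnar1 and Ifnar2 whatever their result; a result that the rule also covers is not reported here. Other members and the list genes named beyond 4 were added after their values were seen.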

Additional observations from a re-analysis of the deposited data

Results flagged for a closer look

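All 39 members were tested for a difference between times after MI, by the contrast between the 2 times in the edgeR fit of all genes. The 21 pairs of member and contrast given here are those that passed. Between day 7 and day 3 the difference passed for Igtp (-1.38 ± 0.27 (SE), adjusted p = 0.028). It did not pass without day 3 replicate 2 or either day 7 library (adjusted p up to 0.22), nor with the presence of Y-linked reads as a covariate.

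Between week 4 and day 3 the difference passed for 20 members, with log2 values from -4.81 to -1.07. Oas1a had the largest, -4.81 ± 0.68 (SE), adjusted p = 0.0015, followed by Oasl1 at -3.89 ± 1.17 (SE), adjusted p = 0.046, Zbp1 at -3.79 ± 0.74 (SE), adjusted p = 0.0058 and Isg15 at -3.65 ± 0.61 (SE), adjusted p = 0.0034. Ifi44 differed by -3.18 ± 0.84 (SE), adjusted p = 0.031. Ifit1 and Ifit3, neighbours on chromosome 19, differed by -2.81 ± 0.65 (SE), adjusted p = 0.023 and -2.12 ± 0.56 (SE), adjusted p = 0.039. Usp18 (-2.69 ± 0.43 (SE), adjusted p = 0.0021), Rsad2 (-2.53 ± 0.58 (SE), adjusted p = 0.013), Irf7 (-2.4 ± 0.37 (SE), adjusted p = 0.0018) and Oasl2 (-2.28 ± 0.34 (SE), adjusted p = 0.0016) came next. Rtp4 differed by -2.16 ± 0.41 (SE), adjusted p = 0.0051 and Bst2 by -1.86 ± 0.33 (SE), adjusted p = 0.0035. Ddx58 (-1.63 ± 0.36 (SE), adjusted p = 0.01), Xaf1 (-1.56 ± 0.40 (SE), adjusted p = 0.024) and Ifih1 (-1.07 ± 0.31 (SE), adjusted p = 0.037) had smaller differences. Of the GTPase genes, Iigp1 (-1.97 ± 0.34 (SE), adjusted p = 0.0035), Gbp3 (-1.85 ± 0.32 (SE), adjusted p = 0.0032), Igtp (-1.83 ± 0.27 (SE), adjusted p = 0.0016) and Gbp7 (-1.23 ± 0.26 (SE), adjusted p = 0.0096) differed. The comparison shares its day 3 libraries with the rise at day 3.

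With the covariate for Y-linked reads the count of 20 was 17, and Ifih1, Ifit3 and Oasl1 did not pass (adjusted p 0.0504 to 0.0778). The count was 11 without either week 4 library and 14 to 23 without any other library. Irf7, Oas1a, Oasl2, Bst2, Usp18, Gbp3, Igtp and Iigp1 passed in all 10 of these fits. Ddx58 no longer passed without either week 4 library (adjusted p up to 0.076). Ifih1 no longer passed without either day 3 library or either week 4 library (adjusted p up to 0.23). Zbp1 no longer passed without week 4 replicate 1 (adjusted p up to 0.054). Ifit1 no longer passed without either day 3 library, either day 7 library or either week 4 library (adjusted p up to 0.23). Ifit3 no longer passed without either day 3 library, either day 7 library or either week 4 library (adjusted p up to 0.25). Oasl1 no longer passed without either uninjured library, day 3 replicate 2, either day 7 library or either week 4 library (adjusted p up to 0.26). Rsad2 no longer passed without day 3 replicate 1 or week 4 replicate 2 (adjusted p up to 0.11). Isg15 no longer passed without week 4 replicate 1 (adjusted p up to 0.058). Ifi44 no longer passed without day 3 replicate 2, day 7 replicate 1 or either week 4 library (adjusted p up to 0.22). Xaf1 no longer passed without either day 3 library or week 4 replicate 2 (adjusted p up to 0.18). Rtp4 no longer passed without week 4 replicate 2 (adjusted p up to 0.05). Gbp7 no longer passed without week 4 replicate 1 (adjusted p up to 0.095).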

How the results depend on the processing

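No called value reversed its direction under any alternative. Counts of members called were within 1.5 times with DESeq2's size factors in edgeR in all 9 comparisons. With Y-linked reads as a covariate the calls numbered 11 at day 3, 4 at day 7 and 0 at week 4 against uninjured, and 0 for day 7 against day 3 (8.54%, 3.92%, 1.17% and 0.935% of all genes). Without a filter on low counts they numbered 14 at day 7, 2 at week 2 and 2 at week 4 against uninjured, 5 for day 7 against day 3, 6 for week 2 against day 7, 10 for week 4 against week 2, and 26 for any difference (10.1%, 4.36%, 5.32%, 4.46%, 5.63%, 5.21% and 22.7% of all genes). DESeq2 gave 1 at week 2 against uninjured, 3 for day 7 against day 3, 4 for week 2 against day 7 and 3 for week 4 against week 2 (5.67%, 6.79%, 7.3% and 6.76% of all genes). The cause of these shifts was not tested.

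Leaving out each RNA library in turn gave 9 to 18 calls at day 3, 3 to 10 at day 7, 0 to 2 at week 2 and 0 to 1 at week 4 against uninjured. It gave 0 to 1 for day 7 against day 3, 0 to 2 for week 2 against day 7, 0 to 6 for week 4 against week 2, 11 to 23 for week 4 against day 3, and 12 to 23 for any difference. A group left with 1 library was assumed to vary like the others.

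The replicate numbers share no stated origin, and the deviations of same-numbered libraries correlated at -0.04 to 0.05. These values show no strong shift shared by replicate number. They cannot show whether the libraries were collected or processed in pairs. With a replicate block 15 members passed at day 3, 6 at day 7, 0 at week 2 and 1 at week 4 against uninjured, 1 for day 7 against day 3, 0 for week 2 against day 7 and for week 4 against week 2, 19 for week 4 against day 3 and 16 for any difference. The shares of all genes, in the same order, were 11.9%, 7.41%, 2.03%, 2.42%, 1.39%, 0.762%, 0.842%, 13.5% and 15.1%. Xaf1 and Rtp4 at day 3, Rsad2 and Ifi44 at day 7, and Ifit3 for week 4 against day 3 then missed the threshold (adjusted p 0.052 to 0.0614).

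For regions, leaving out a library gave 23 to 32 gained at day 3, 12 to 20 at day 7, 8 to 11 at week 2 and 5 to 10 at week 4, and 6 to 13, 7 to 22, 11 to 26 and 8 to 26 lost; a group of 1 library meets the rule more easily. Asking for at least 50% of a region to be covered gave 6 gained at day 7, 3 at week 2 and 0 at week 4, and 7, 10, 13 and 13 lost at day 3, day 7, week 2 and week 4. The 2 kb window gave 6 gained at day 7 and 5 lost at week 4. With 2 libraries a group, depth and number limit what could pass. Oas2, Mx1 and Mx2, each at a few CPM or less in uninjured hearts, had SEs of 1.52 to 1.97 at day 3. Oas2 reached 21.6 and 12.5 CPM at day 3 and did not pass.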

Other observations

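Between day 3 and week 4 genes of MHC class I presentation moved in both directions, where 7.52% of all genes were lower and 5.84% higher. Of 11 tested, the proteasome genes Psmb8, Psmb10 and Psme2 were lower at week 4 than at day 3 by log2 differences of -1.68, -1.09 and -1.24, and the class I heavy chain gene H2-D1 was higher by 0.87 (edgeR adjusted p = 0.0016, 0.024, 0.0069 and 0.011). H2-D1 had 930 and 961 CPM in the uninjured libraries, 643 and 579.97 at day 3 and 1192 and 1037 at week 4. Socs3, an inhibitor of JAK-STAT signalling, was higher at week 4 than at day 3 by 2.29 ± 0.54 (SE), adjusted p = 0.023, with 156 and 65.7 CPM at day 3 and 460 and 625 at week 4. Ifi205 was lower than uninjured at day 7 and week 4, by -1.85 and -2.08 (adjusted p = 0.0084 and 0.0096), while its day 3 libraries, at 365 and 165 CPM, lay on either side of the uninjured ones.

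Markers of the other cells in the lists had these summed levels over the 10 RNA libraries: endothelial 127 to 782 CPM, pericyte and smooth muscle 152 to 1204, erythroid 142 to 5984 and cardiomyocyte 42.6 to 187, each lowest in day 3 replicate 2, and B cell 2.13 to 41.9, neutrophil 0.053 to 23.3, and T and NK cell 0.053 to 8.92.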
